A study of Mus musculus with 10 samples.

Results

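The genes described here are 8 genes of Schwann cells and peripheral myelin: Pmp22, Prx, Egr2, Drp2, Ncmap, Cldn19, Gjb1 and Pmp2. They were chosen by name, and every probe set (a group of short array probes for 1 transcript) that the platform table gives to one of these symbols was taken. That rule found 11 of 45037 probe sets, for 7 of the 8 genes; Prx had no probe set under its name in the table used and was not analysed here. Cochlear RNA had been hybridised to 10 one-colour arrays, 5 from male mice homozygous for the D257A allele of Polg (PolgD257A/D257A) and 5 from male wild-type (WT, Polg+/+) mice, all at 9 months of age and with no treatment given in the labels. The allele lies in the gene of the polymerase that copies mitochondrial DNA and takes away its ability to correct copying errors, so that mutations build up in mitochondrial DNA in all tissues of the animal rather than in Schwann cells alone. The labels give no strain background. They do not say whether each of the 5 arrays of a group came from a separate animal, and the design text states that replicates were not made, so the p-values measure the spread between these arrays, which may be technical. How much nerve was kept on the dissected cochlea is not stated.

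Schwann cells wrap the axons of peripheral nerves in myelin, a stack of membrane that speeds conduction. In the cochlea they wrap the processes of spiral ganglion neurons, and oligodendrocytes of the central nervous system take over along the auditory nerve. Egr2 is the transcription factor that, together with Sox10, switches a Schwann cell to making myelin. Pmp22 and Pmp2 encode proteins of compact myelin. Ncmap, Cldn19 and Gjb1 encode proteins of the non-compacted membrane and its junctions, and Drp2 and Prx encode partners that tie the outer surface of the myelin sheath to dystroglycan and the basal lamina.

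Among these genes only Egr2 passed the test, and it was higher in D257A cochleae, at 1.68 times the WT level (95% interval 1.33 to 2.13, n = 5 arrays each). The dosage-sensitive myelin gene Pmp22 and 2 of the 3 Drp2 probe sets differed by less than the spread between arrays. Gjb1, Ncmap and Cldn19 were higher on 4 of the 5 D257A arrays than the WT mean and well below it on the fifth, and none passed the test. For Cldn19 the log2 fold change was only 0.04. Of 8 member probe sets bright enough to be tested, 1 was called at an adjusted p under 0.05 (limma, Benjamini-Hochberg), against 2.28% of all 22518 tested probe sets, or 1.03% in the higher direction. By gene that is 1 of 6 members, against 0.657% of all tested genes called higher. At an unadjusted p under 0.05 and a fold above 1.1, both Egr2 probe sets and no other tested member probe set passed, against 16.9% of tested probe sets in either direction and 8.28% in the higher one. None of the 3 dim member probe sets was called when all 45037 were tested, where 1.31% were. With arrays as bulk samples, fewer cells of a type and less RNA per cell cannot be told apart.

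**Figure D1:**
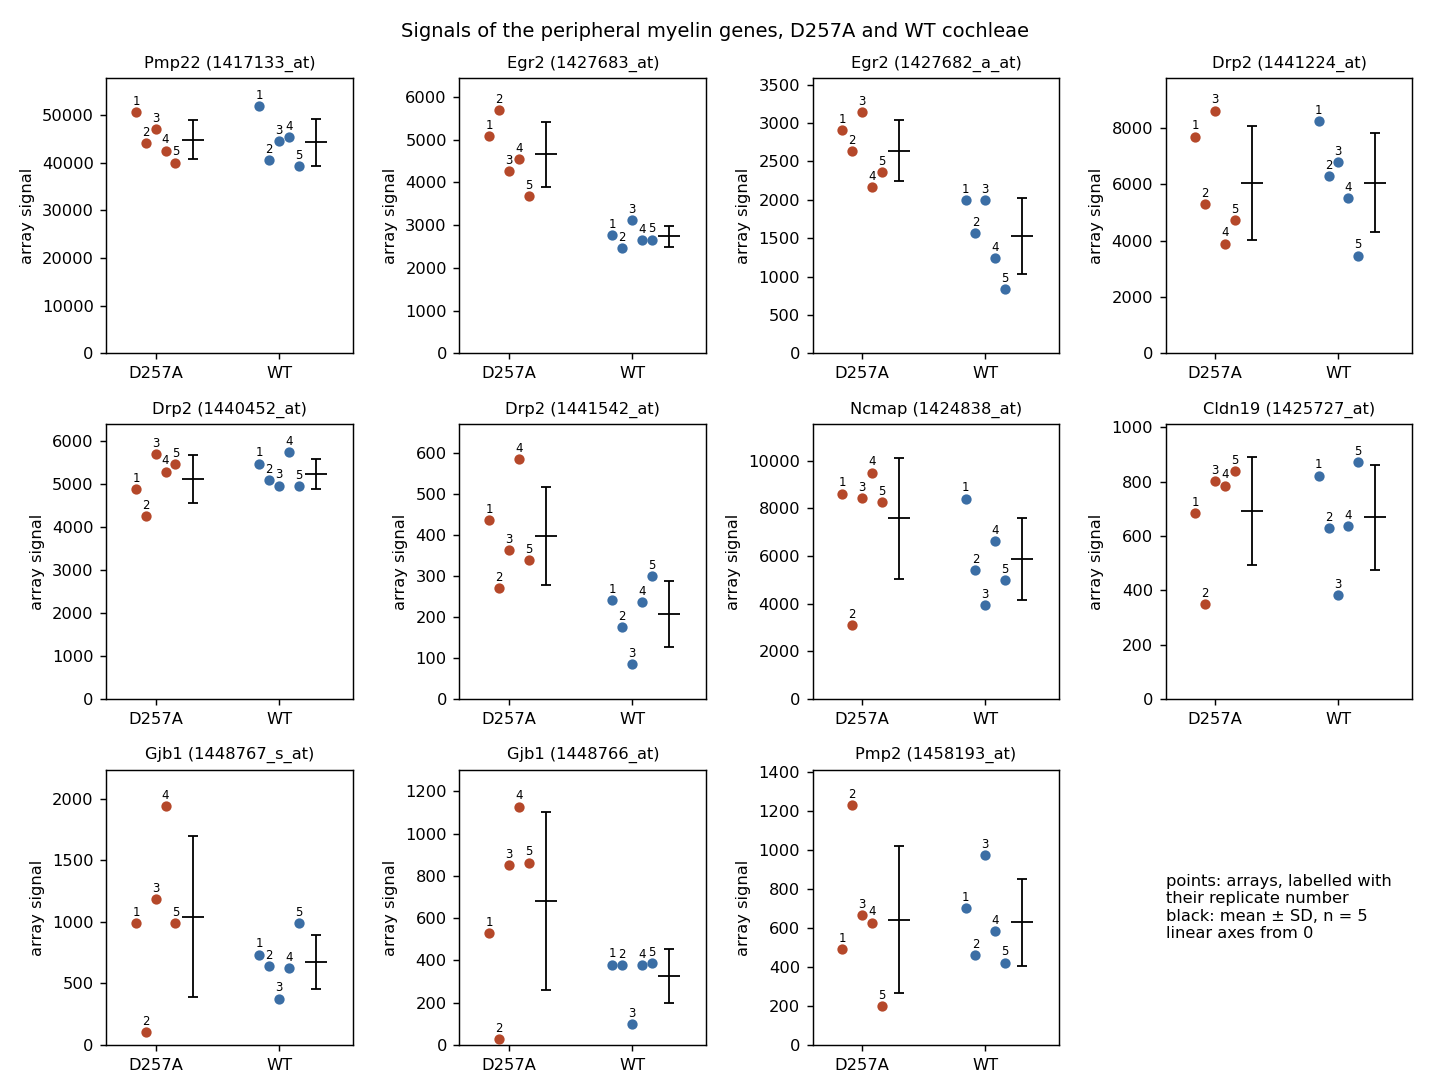
Array signal (linear axis, from 0) of each of the 11 probe sets of the 7 measured genes in D257A (left, red) and WT (right, blue) cochleae; points are arrays labelled with their replicate number and black marks give mean ± SD (n = 5). Both Egr2 probe sets have all 5 D257A points above all 5 WT points, while D257A replicate 2 is the lowest D257A point for Ncmap, Cldn19 and both Gjb1 probe sets and the highest for Pmp2.

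All arrays had been scaled to nearly the same level, with trimmed mean signals of 1494.4 to 1496.2, and pairs of arrays correlated at 0.854 to 0.951 over all probe sets. D257A replicate 2 and WT replicate 3 stood apart, each with the lowest mean correlation within its own group (0.89 and 0.914; D257A replicate 4 had 0.906), and results that rest on them are given with and without them. The cochlear markers Coch and Otos, which mark fibrocytes of the spiral ligament, were bright on every array (Coch from 57562.8 to 80129.6 in D257A and from 65510.6 to 83744.1 in WT). Tecta and Oc90, of the tectorial and otoconial membranes, were too dim to be tested. Signals were taken as log2(signal + 16), and the fold changes of dim probe sets depend on the constant added. With 1, 16 or 64 added, the log2 fold change, D257A minus WT, was 1.01, 0.94 and 0.79 for the Drp2 probe set 1441542_at. For the Gjb1 probe set 1448766_at it was 0.53, 0.58 and 0.63. The brighter 0.5 of probe sets, those with a geometric mean signal above 577, were tested, and levels of different probe sets are not set against each other.

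Egr2 lies on mouse chromosome 10 (GRCm38.p6, 67534469 to 67542188). Besides its part in myelination it is an immediate early gene, one of a group that is transcribed within minutes of a stimulus through serum response factor bound to CArG boxes. Because Egr2 was the only gene called, 2 of the 5 RefSeq promoter windows of its annotated starts are shown, those with a CArG box that do not overlap another shown window. In each window, from 250 bases before to 50 after a start, 5′ to 3′ on the plus strand, the CArG box (CC, 6 bases of A or T, GG) is in capitals.
Egr2, chr10:67537316-67537615: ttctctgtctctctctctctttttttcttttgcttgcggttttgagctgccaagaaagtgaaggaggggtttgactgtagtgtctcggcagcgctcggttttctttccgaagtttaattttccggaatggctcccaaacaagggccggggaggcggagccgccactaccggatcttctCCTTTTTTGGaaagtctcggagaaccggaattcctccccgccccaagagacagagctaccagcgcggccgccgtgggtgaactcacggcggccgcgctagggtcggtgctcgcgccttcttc
Egr2, chr10:67537619-67537918: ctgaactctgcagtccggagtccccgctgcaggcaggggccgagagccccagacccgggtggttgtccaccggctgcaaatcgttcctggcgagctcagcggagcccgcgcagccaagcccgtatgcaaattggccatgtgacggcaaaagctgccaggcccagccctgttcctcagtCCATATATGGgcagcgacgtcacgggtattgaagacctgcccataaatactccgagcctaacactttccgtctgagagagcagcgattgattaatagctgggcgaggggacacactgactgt
The box begins 72 bases before the start in both windows, as CCTTTTTTGG in the upstream one and as CCATATATGG in the other. CArG boxes, searched on both strands, were present in 4 of the 5 Egr2 windows, of which 3 overlap and share 1 box, and in 1.63% of the 32851 windows of the whole table. No other member had one. The match is a description of letters and does not show binding.

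The Egr2 probe set with the higher signal, 1427683_at, read 5075.1, 5683.4, 4265.3, 4548.9 and 3676.3 in D257A replicates 1 to 5. It read 2762.2, 2466.2, 3122.1, 2655.4 and 2658.3 in WT replicates 1 to 5. Every D257A array lay above every WT array; groups did not overlap in that direction for 2.47% of all tested probe sets (2.86% with the dim ones included). The means were 4650 ± 767.3 in D257A and 2733 ± 242.4 in WT (SD, n = 5 each), a log2 fold change of 0.75 (SE 0.16, limma adjusted p = 0.0279). The second probe set, 1427682_a_at, which reads alternative transcripts of the gene, gave 2908.2, 2633.3, 3141.7, 2162.0 and 2364.7 in D257A replicates 1 to 5. In WT replicates 1 to 5 it gave 1997.3, 1569.2, 1993.5, 1243.9 and 841.6. Again the groups did not overlap, but the WT arrays spread further, and its log2 fold change of 0.84 (SE 0.24) did not pass (limma adjusted p = 0.0888). The call on the first probe set was narrow. It was lost without D257A replicate 1 (limma adjusted p = 0.0642), D257A replicate 2 (0.0513), WT replicate 1 (0.0504), WT replicate 2 (0.0922), WT replicate 4 (0.0699) or WT replicate 5 (0.0775), while the log2 fold change stayed between 0.68 and 0.83 when each of the 10 arrays was left out in turn. Without both arrays that stood apart it was 0.72 (limma adjusted p = 0.0352).

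Other immediate early genes were read in the same arrays. Of 13 tested genes of that list, 7 had a positive and 6 a negative log2 fold change, none was called and the median was 0.10, against -0.02 over all 11871 tested genes. Of the Egr family, named here after their values were seen, Egr1 averaged 6696 ± 1550 in D257A and 7604 ± 2432 in WT, and Egr3 averaged 631.2 ± 185.0 in D257A and 626.0 ± 132.0 in WT (SD, n = 5 each; limma adjusted p = 0.843 and 0.985). Junb, a subunit of the AP-1 factor, ranged from 834.2 to 3777.0 (median 1580.9) in D257A and from 500.8 to 1222.3 (median 827.9) in WT, and Ier3 averaged 5275 ± 2602 in D257A and 3065 ± 600.1 in WT (limma adjusted p = 0.177 and 0.254). Their D257A values overlapped those of WT. Whether Egr2 differed from these genes was not tested.

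The regulators that work with Egr2 in Schwann cells gave no call either: 8 of 12 tested genes were positive, 4 negative, with a median log2 fold change of 0.08. Pou3f1, the factor of the promyelinating stage that precedes Egr2, averaged 1131 ± 126.4 in D257A and 723.0 ± 272.8 in WT (SD, n = 5 each; log2 fold change 0.72, limma adjusted p = 0.179). Zeb2, a repressor needed for Schwann cell differentiation, averaged 2126 ± 505.0 in D257A and 1313 ± 274.0 in WT (limma adjusted p = 0.113). Sox10, the factor of the whole Schwann lineage, ran the other way at 7312 ± 2678 in D257A and 10280 ± 952.4 in WT (log2 fold change -0.57, limma adjusted p = 0.23). Nab1 and Nab2, the corepressors that bind Egr proteins and were named after their values were seen, had log2 fold changes of 0.15 and -0.28 (limma adjusted p = 0.745 and 0.558). The part of cell types other than Schwann cells in the values of these regulators, Sox10 among them, was not tested.

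Among compact myelin genes, Pmp22 encodes a membrane protein whose gene dose matters: in people an extra copy causes a form of Charcot-Marie-Tooth neuropathy, and loss of a copy causes a neuropathy with liability to pressure palsies. It lies on chromosome 11 (63128982 to 63159547). Its probe set read 50593.2, 44123.6, 47123.6, 42564.0 and 40069.9 in D257A replicates 1 to 5. It read 51851.3, 40585.1, 44645.4, 45430.6 and 39244.5 in WT replicates 1 to 5. The D257A range lay wholly inside the WT range. The means were 44890 ± 4085 in D257A and 44350 ± 4944 in WT (SD, n = 5 each), a log2 fold change of 0.02 with a 95% interval from -0.26 to 0.30 (limma adjusted p = 0.959). The interval runs from 0.836 to 1.23 times the WT level, and the sign of the estimate turned to -0.08 when arrays were centred on the median and to -0.11 under quantile normalization. Pmp22 is also made by fibroblasts and epithelial cells, and genes of both fell here. Of 9 tested fibroblast and matrix genes, 5 (Bgn, Col3a1, Postn, Col1a1 and Col1a2) were called lower and none higher, against 2.32% of all tested genes called in either direction, and of 11 glandular and mucosal genes 9 were called lower. The summed signal of the 9 fibroblast and matrix genes ranged from 82020.7 to 106215.7 in D257A and from 122921.9 to 164604.9 in WT, and that of the glandular genes from 17020.5 to 29692.4 in D257A and from 97094.2 to 414744.4 in WT, with no gene of either list at a signal of 0. Their part in the Pmp22 level was not tested.

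Pmp2 encodes a small cytosolic fatty acid binding protein of peripheral myelin that sits between the membrane layers. It lies on chromosome 3 (10179851 to 10183885) beside 4 related genes, Fabp4, Fabp5, Fabp9 and Fabp12. Its probe set was too dim to be tested with the others, so its p comes from a fit over every probe set. It read 489.6, 1229.5, 667.1, 627.1 and 198.2 in D257A replicates 1 to 5, against 702.3, 461.3, 972.1, 583.6 and 422.1 in WT replicates 1 to 5. D257A replicate 2 was the highest of all arrays and D257A replicate 5 the lowest, so the D257A values enclosed the WT range. The log2 fold change was -0.12 (95% interval -0.99 to 0.76, limma adjusted p = 0.921), and it turned to 0.23 without D257A replicate 5 and to 0.05 without WT replicate 3, and was -0.40 without D257A replicate 2. Of the neighbouring family, named after their values were seen, the adipocyte and macrophage gene Fabp4 averaged 39550 ± 29290 in D257A and 40900 ± 15350 in WT, and the epidermal form Fabp5 averaged 15560 ± 5605 in D257A and 15520 ± 5431 in WT (SD, n = 5 each). None of the 4 tested members of the family was called. Those with the smallest p were Fabp7, of immature Schwann cells and glia, at 14370 ± 3704 in D257A and 10720 ± 4577 in WT, and the muscle form Fabp3, at 11060 ± 6158 in D257A and 8110 ± 2276 in WT (limma adjusted p = 0.431 and 0.648). Among 16 tested genes of cholesterol synthesis and uptake, which feed myelin membrane growth, none was called and the median log2 fold change was 0.08. Lss, the enzyme that closes the sterol rings, averaged 1467 ± 189.4 in D257A and 1033 ± 285.3 in WT, and Insig1, which restrains the pathway, averaged 3798 ± 1167 in D257A and 2832 ± 882.7 in WT (limma adjusted p = 0.236 and 0.436).

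Gjb1 encodes a connexin whose gap junctions link the layers of a Schwann cell's own myelin at paranodes and incisures, and which oligodendrocytes and gland cells make as well. It lies on the X chromosome (101376376 to 101385629). The RefSeq window of its most downstream start is shown because Gjb1 is a known target of Sox10 and Egr2, the 2 factors measured above; the SOX sequences ACAAAG and ACAATG (here on the opposite strand, as CATTGT) are in capitals.
Gjb1, chrX:101383482-101383781: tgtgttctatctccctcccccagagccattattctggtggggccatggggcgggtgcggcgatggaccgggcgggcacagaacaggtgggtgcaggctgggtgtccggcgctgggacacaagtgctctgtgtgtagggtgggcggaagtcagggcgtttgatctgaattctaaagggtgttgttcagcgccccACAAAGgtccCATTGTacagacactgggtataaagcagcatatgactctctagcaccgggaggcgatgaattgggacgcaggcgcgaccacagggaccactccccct
They begin 57 and 47 bases before the start and do not overlap each other. ACAAAG was found in 18.7% and ACAATG in 12.6% of all windows. A second Gjb1 start held ACAAAG alone, and none of the other 16 windows of members held either. The EGR sequences GCGTGGGCG and GCGGGGGCG, searched on both strands, were in none of the 18 windows of 6 members and in 0.612% and 2.91% of all windows. Drp2 and Pmp2 were not matched in the promoter table.

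The Gjb1 probe set 1448767_s_at, which may also read other transcripts, gave 992.0, 103.2, 1186.2, 1939.8 and 991.5 in D257A replicates 1 to 5. It gave 734.7, 643.6, 376.8, 624.5 and 992.1 in WT replicates 1 to 5. D257A replicate 2 was the lowest array and D257A replicate 4 the highest. The dim second probe set, 1448766_at, read 530.5, 29.2, 852.1, 1127.7 and 862.7 in D257A replicates 1 to 5 and 379.8, 379.0, 97.8, 378.9 and 388.0 in WT replicates 1 to 5. On it 4 D257A arrays exceeded every WT array, and again D257A replicate 2 was lowest. The log2 fold changes were 0.24 (95% interval -1.06 to 1.54) and 0.58 (-1.05 to 2.22), with a limma adjusted p of 0.886 and, for the dim probe set in the fit over every probe set, 0.757. Without D257A replicate 2 they were 0.91 and 1.43 (limma adjusted p = 0.145 and 0.129), and without that array and WT replicate 3 they were 0.73 and 1.06 (0.154 and 0.0794). Without WT replicate 3 alone they were 0.05 and 0.22, and without D257A replicate 4 alone they were -0.10 and 0.26. Neither probe set passed in any of these fits.

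Ncmap encodes a small membrane protein of non-compact peripheral myelin, on chromosome 4 (135369576 to 135398240). It read 8620.8, 3094.0, 8421.1, 9506.7 and 8264.8 in D257A replicates 1 to 5, against 8419.4, 5416.2, 3944.2, 6625.2 and 4999.3 in WT replicates 1 to 5. Here 4 D257A arrays lay above the WT mean and D257A replicate 2 was the lowest array. The log2 fold change was 0.31 (95% interval -0.34 to 0.97, limma adjusted p = 0.646). It was 0.61 without D257A replicate 2 (0.168), 0.18 without WT replicate 3 (0.783), 0.21 without D257A replicate 4 (0.782) and 0.48 without both arrays that stood apart (0.186).

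Cldn19, also on chromosome 4 (119255441 to 119262438), encodes the claudin of Schwann cell tight junctions, which seal the electrical path along the sheath. Its signals were 686.0, 350.4, 801.9, 786.3 and 840.6 in D257A replicates 1 to 5, against 822.7, 628.5, 382.4, 637.4 and 873.8 in WT replicates 1 to 5. The groups covered almost the same range, and the lowest array of each was the one that stood apart. The log2 fold change was 0.04 (95% interval -0.58 to 0.67, limma adjusted p = 0.963). It was 0.26 without D257A replicate 2, -0.14 without WT replicate 3 and 0.08 without both.

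**Figure D2:**
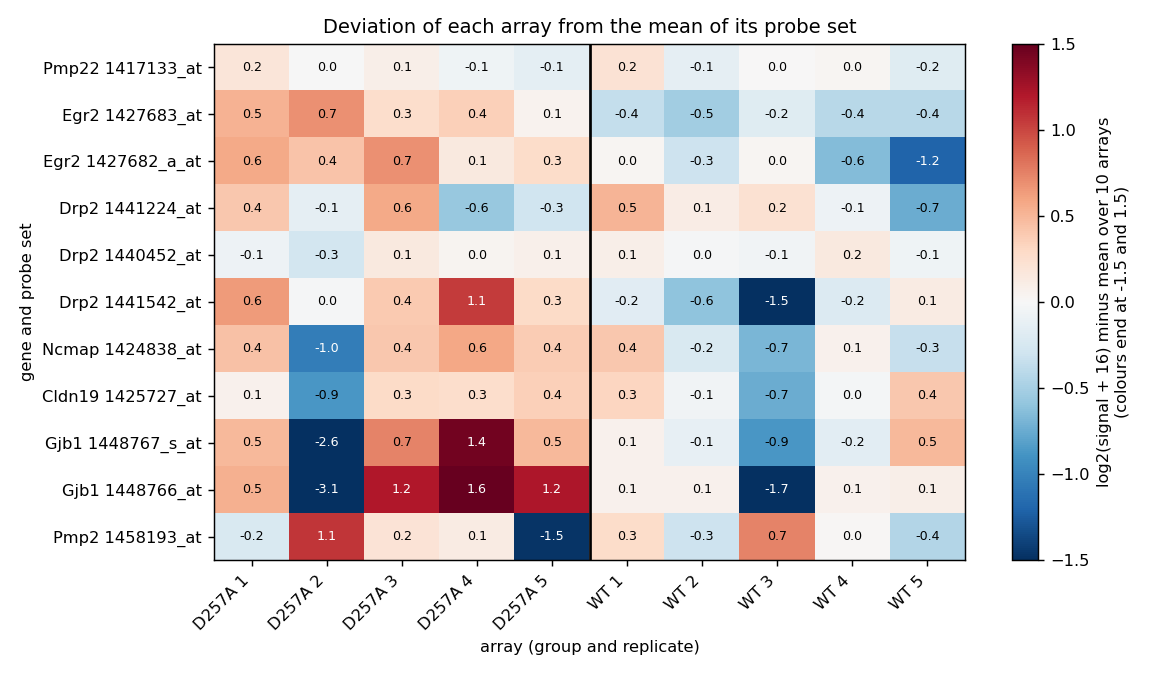
Deviation of each array (columns, 5 D257A left of the line and 5 WT right of it) from the mean over all 10 arrays, in log2(signal + 16), for each probe set (rows); colours end at -1.5 and 1.5. The rows of Ncmap, Cldn19 and Gjb1 are blue in D257A replicate 2 and WT replicate 3, the Pmp2 row is red there, and both Egr2 rows are red in all 5 D257A arrays.

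The 3 membrane and junction genes varied together across arrays. With each group's mean removed, the Pearson correlations over the 10 arrays were 0.843 for Ncmap with Cldn19, 0.875 for Ncmap with Gjb1 and 0.873 for Cldn19 with Gjb1. Those of Egr2 with the same 3 genes were -0.603, -0.747 and -0.648, and that of Pmp22 with Drp2 was 0.794. Each gene was read here through its probe set with the highest mean only (1427683_at for Egr2, 1441224_at for Drp2). On the Egr2 probe set 1427682_a_at and the Drp2 probe set 1440452_at the arrays fell in another order, so the values may not hold for them. The correlations are descriptions of 10 arrays that share scaling and dissection, and D257A replicate 2 and WT replicate 3 lie at an end of most of them. Neuron and axon markers ran low on the same arrays: the mean of centred log2 signals of 12 such genes was -0.633 in D257A replicate 2 and -0.456 in WT replicate 3, against -0.11 to 0.456 on the other 8. The part of neuron content in the Gjb1, Ncmap and Cldn19 values was not tested.

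The tested genes most like each member in this measure were, for Egr2, Glt8d2, Scn1a and Ttc3 (0.967 to 0.971), and for Pmp22, Nwd2, Dgkh and Tmtc1 (0.962 to 0.993). For Drp2 they were Ticam1, Abcg2 and Senp8 (0.959 to 0.977). They were Fxyd2, Acot7 and Lin7b for Ncmap (0.962 to 0.976), Nt5c, Diras1 and Rnaseh2a for Cldn19 (0.972 to 0.99) and Bex2, Ggt7 and Tbc1d25 for Gjb1 (0.988 to 0.99). None of these 18 genes was called between the groups (limma adjusted p from 0.151 to 0.986).

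Drp2 encodes a relative of dystrophin that, with periaxin (the product of Prx), joins the outer Schwann cell membrane to dystroglycan. It lies on the X chromosome (134404124 to 134456574). Of its 3 probe sets, 1441224_at read 7685.2, 5294.0, 8604.6, 3890.7 and 4718.1 in D257A replicates 1 to 5 and 8236.5, 6286.2, 6781.9, 5500.5 and 3467.1 in WT replicates 1 to 5. Probe set 1440452_at ranged from 4257.3 to 5699.2 (median 5296.7) in D257A and from 4950.8 to 5741.6 (median 5100.7) in WT. Both overlapped widely, with log2 fold changes of -0.01 (95% interval -0.59 to 0.56) and -0.04 (-0.34 to 0.26; limma adjusted p = 0.991 and 0.917). The signs of both are not settled: they turned to 0.07 and 0.0059 without the arrays that stood apart. The dim probe set 1441542_at read 435.9, 269.5, 363.7, 583.8 and 337.7 in D257A replicates 1 to 5, against 240.2, 174.7, 86.1, 235.7 and 298.9 in WT replicates 1 to 5. There 4 D257A arrays exceeded every WT array, and the log2 fold change was 0.94 (SE 0.35; limma adjusted p = 0.214 in the fit over every probe set). All but 1 of its signals lay under the edge of 577, and no detection calls were at hand to say which were above background. The mean over the 3 Drp2 probe sets gave a log2 fold change of 0.30, so the probe sets of this gene do not give 1 answer.

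**Figure D3:**
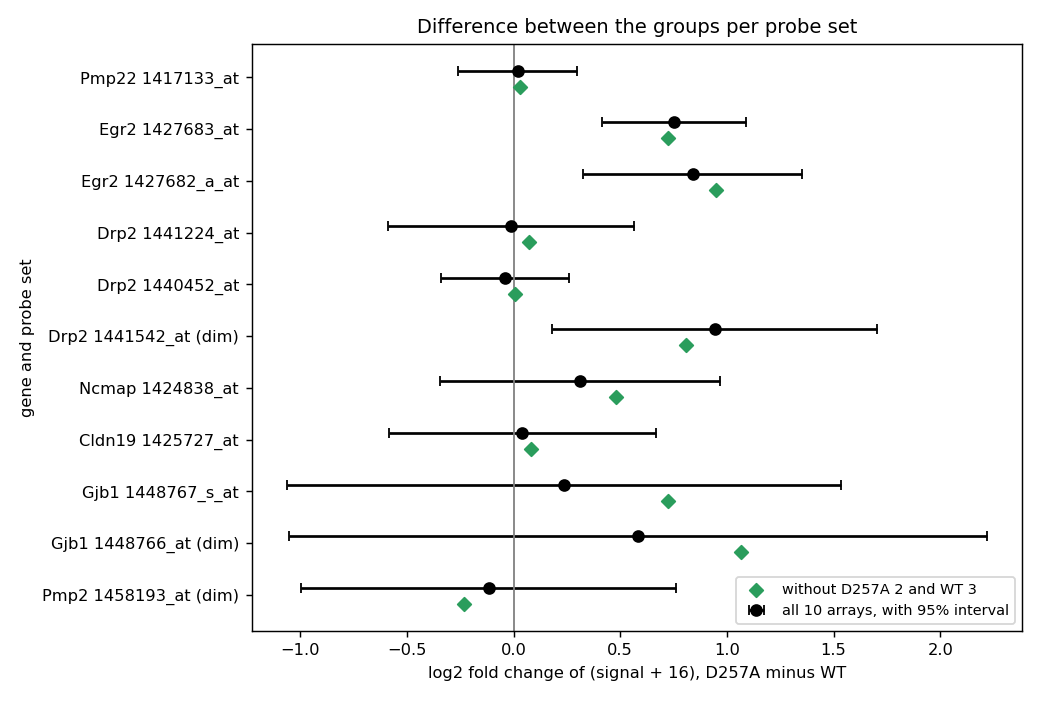
Log2 fold change, D257A minus WT, of each probe set with its 95% interval from limma (black, 5 arrays per group) and the same value without D257A replicate 2 and WT replicate 3 (green diamonds); "dim" marks probe sets that were not tested with the others, taken from the fit over every probe set. The Egr2 intervals and that of the dim Drp2 probe set lie above 0, the Pmp22 interval is the narrowest, and the Gjb1 intervals are the widest and its diamonds lie furthest from the black points.

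The dystroglycan complex and basal lamina, to which Drp2 and periaxin are attached, were read through 16 tested genes. Of these, 15 had negative log2 fold changes and 1 a positive one, where 6285 of all 11871 tested genes were negative. None of the 16 was called, 5 had an unadjusted p under 0.05 (16.7% of all tested genes did), and the median was -0.34. Lamc1, a laminin chain of nearly all basal laminae, averaged 2948 ± 746.2 in D257A and 4636 ± 638.1 in WT (SD, n = 5 each; log2 fold change -0.67, limma adjusted p = 0.0849). Col4a1, a chain of type IV collagen, averaged 6272 ± 673.0 in D257A and 8762 ± 968.1 in WT, with no overlap (limma adjusted p = 0.102). Dag1, which encodes dystroglycan itself and was named after its values were seen, read from 8497.7 to 9571.0 in D257A and from 11351.5 to 12816.1 in WT, again with no overlap (log2 fold change -0.41, limma adjusted p = 0.102). The groups did not overlap for 5.16% of all tested probe sets in either direction. Muscle and fibroblasts make these genes too. Of 11 skeletal muscle markers 6 were called lower, where 2.32% of all tested genes were called in either direction. Their summed signals ran from 8368.4 to 235258.9 in D257A and from 138883.8 to 432324.9 in WT, with none at 0. The part of muscle and fibroblasts in the values of the 16 genes was not tested.

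Signals between axon and Schwann cell gave no call among 12 tested genes (5 positive, 7 negative, median -0.11). Adam22, a receptor for the Schwann cell protein Lgi4, averaged 4951 ± 1435 in D257A and 6968 ± 457.5 in WT, and the hedgehog receptor gene Ptch1 averaged 5517 ± 746.6 in D257A and 6952 ± 1410 in WT (SD, n = 5 each; limma adjusted p = 0.158 and 0.377). Erbb3, the Schwann cell receptor for neuregulin and named after its values were seen, averaged 6130 ± 878.8 in D257A and 5981 ± 412.8 in WT. Among 12 tested genes of nodes, paranodes and incisures, 5 were positive and 7 negative, with a median of -0.04 and no call. Cntn1, the axonal contactin of the paranode, averaged 29240 ± 5227 in D257A and 19030 ± 4412 in WT (limma adjusted p = 0.0922), and Cadm3, an axonal adhesion protein that binds Schwann cell Cadm4, averaged 3961 ± 743.4 in D257A and 5735 ± 1546 in WT (0.217).

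Among 12 tested further peripheral myelin genes, 6 were positive and 6 negative, none was called, and the median was 0.04 (it turned sign when arrays were centred on the median). Fxyd3, a sodium pump regulator of Schwann cells and epithelia, averaged 5292 ± 802.8 in D257A and 8937 ± 2114 in WT, with no overlap (log2 fold change -0.74, limma adjusted p = 0.0585). Of 14 tested markers of non-myelinating and repair Schwann cells, 8 were positive, 6 negative and none called (median 0.05). Scn7a, a sodium channel of non-myelinating Schwann cells, averaged 9549 ± 3660 in D257A and 5208 ± 3357 in WT, and the adhesion gene L1cam averaged 7108 ± 1482 in D257A and 9357 ± 1654 in WT (SD, n = 5 each; limma adjusted p = 0.224 and 0.294). Of 7 tested perineurial markers none was called (median 0.02); the glucose transporter gene Slc2a1, also of endothelium, averaged 14130 ± 1577 in D257A and 9575 ± 1157 in WT (limma adjusted p = 0.0634), and Lypd2 averaged 1211 ± 772.9 in D257A and 2387 ± 573.6 in WT (0.208). Among 12 neuron and axon markers 8 were positive, 4 negative and none called (median 0.15). The markers with the smallest p were both among the negative ones: the synaptic vesicle sensor gene Syt1 averaged 7547 ± 826.2 in D257A and 12370 ± 2438 in WT (0.0543), and Thy1 averaged 13050 ± 2748 in D257A and 18080 ± 2973 in WT (0.186).

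Genes that peripheral and central myelin share, and markers of oligodendrocytes, some of which other cochlear cells also make (such as Cldn11, the claudin of strial basal cells), were read as well. Of 12 tested shared genes 8 were positive and 4 negative, with a median log2 fold change of 0.30 and no call. Gal3st1, which makes the myelin lipid sulfatide, averaged 2235 ± 432.5 in D257A and 1329 ± 204.6 in WT with no overlap (SD, n = 5 each; log2 fold change 0.74, limma adjusted p = 0.055, and 0.0496 without the arrays that stood apart). Mbp, whose protein binds the inner faces of the myelin membrane together, averaged 92130 ± 4463 in D257A and 69850 ± 9644 in WT (limma adjusted p = 0.113). All 9 tested oligodendrocyte markers were positive, with a median of 0.62, where 5586 of all 11871 tested genes were positive. Of the 9, only Mobp, a protein of central myelin, was called (13690 ± 4855 in D257A and 5599 ± 1999 in WT, log2 fold change 1.28, limma adjusted p = 0.0466, lost when any of 9 of the 10 arrays was left out, with values up to 0.106). Of all tested genes 0.657% were called higher. Ermn and Hapln2, of oligodendrocytes and central nodes, had log2 fold changes of 1.29 and 1.68 (limma adjusted p = 0.0568 and 0.0592). The summed signal of the 14 oligodendrocyte genes ranged from 43439.9 to 77757.3 in D257A and from 28621.9 to 35062.3 in WT, with none at 0. The groups did not overlap in this sum, and the part of oligodendrocyte content in the Egr2 and Gjb1 values was not tested. No test compared the lists with each other.

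**Figure D4:**
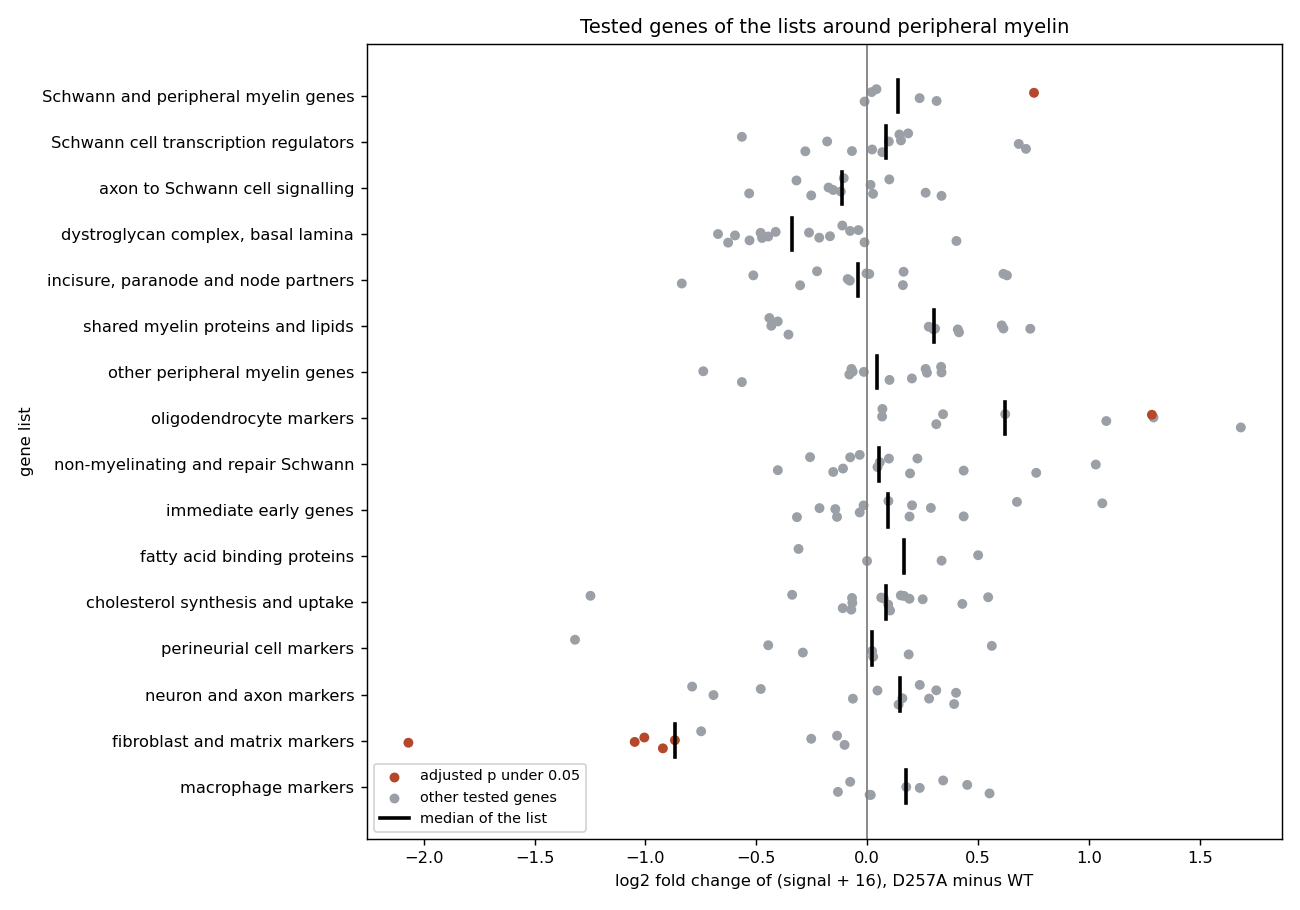
Log2 fold change, D257A minus WT, of every tested gene (points) in 16 of the 18 gene lists (rows; the muscle and glandular lists, which lie further left, are not drawn); orange-red points passed an adjusted p of 0.05 in limma, grey points did not, and black bars are list medians. The only called points in lists of nerve, glia and myelin are Egr2 at 0.75 and Mobp at 1.28, and all 9 oligodendrocyte points lie right of 0.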

How the data were processed

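Signals of 45101 probe sets on 10 Affymetrix arrays were used as deposited: linear intensity values, 1 per probe set and array, made by the authors with GCOS 1.3 (submitters' processing notes). How GCOS summarised and scaled the probes is not given in the sources used here. No detection call or scan date was at hand, so no batch could be tested. Control probe sets (64) with a value on 1 array only were left out. Names came from the platform table: of 45037 probe sets, 34945 had 1 gene, 932 several and 9160 none, and only those with 1 were named. A gene was represented by its probe set with the highest mean.

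Values were transformed as log2(signal + 16), the brighter fraction 0.5 of probe sets was kept (22518), and limma 3.58.1 in R 4.3.3 was fitted with group as the only term (eBayes with an intensity trend, 8 residual degrees of freedom, two-sided, Benjamini-Hochberg adjustment across them, called at 0.05). The script was tested on simulated data with 200 changed probe sets. It called 49% of those changed by 1 log2 unit and 91% of those changed by 2, and 7.28% of its calls were false. Differences under 1 log2 unit can therefore be missed. Dimmer probe sets take their values from the fit with no filter. The number of arrays limits the precision.

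The members, the 17 gene lists beside them and the alternatives were chosen with earlier results of these data known. The named genes are all members, and in each list the called genes and up to 2 more with the smallest unadjusted p, with the exceptions marked in the text; for the muscle and glandular lists only counts are given. Likeness is the Pearson correlation of log2 signals with group means removed. Alternatives were a pseudocount of 1 or 64, median centring, quantile normalization, array weights, no trend, no filter or only the brightest 30%, a block for the replicate number, each array in turn or the 2 arrays that stand apart left out, and the design text's limits (p under 0.05, fold above 1.1) without adjustment. Promoter windows are from RefSeq (GRCm38.p6) and matched 6 of 8 members by symbol. No probe set was named Prx in the table used, and probe sequences were not used.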

Additional observations from a re-analysis of the deposited data

Results flagged for a closer look

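Among the 22 groups of 5 arrays examined (11 probe sets in D257A and in WT), 2 held an array far from the others of its group, where chance flags about 1 group in 20. For Ncmap the D257A replicate 2 array read 3094.0, against 8264.8 to 9506.7 on the other D257A arrays. For the dim Gjb1 probe set 1448766_at the WT replicate 3 array read 97.8, against 378.9 to 388.0 on the other WT arrays.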

How the results depend on the processing

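Over 212 repeats of the 11 probe set tests, 179 kept direction and side of the threshold, 7 lost a call, 1 gained one and 25 turned sign, all 25 of them for probe sets that were never called. The count of member probe sets called was 1; it was 2 with array weights, 0 with the replicate block, 2 at the unadjusted limits (which 16.9% of all tested probe sets passed) and 0 to 1 over the fits that left out 1 array. The count over all tested probe sets was 513, and it was 322 in the brightest 30%, 1217 with array weights, 188 with the replicate block, 3809 at the unadjusted limits and 197 to 571 with 1 array left out (303 without D257A replicate 1, 323 without D257A replicate 5, 203 without WT replicate 2, 281 without WT replicate 4, 197 without WT replicate 5). Of these calls 45.4% were higher in D257A, but 26.6% when arrays were centred on the median; over all tested probe sets that centring gave a median log2 fold change of -0.101. The Egr2 log2 fold change was 0.75 with the replicate block (limma adjusted p = 0.0981) and 0.68 to 0.83 with 1 array left out. It was lowest, at 0.65, with arrays centred on the median (limma adjusted p = 0.0479). The labels do not say that equal replicate numbers mark paired arrays, and not every pair's deviations correlated above 0.1 (0.183, -0.214, -0.337, 0.148 and 0.181 for numbers 1 to 5); only numbers 1 and 5 had their own number as closest match. Signs of near-zero values turned as follows, and the cause was not tested. Pmp22 was -0.081 with arrays centred on the median and -0.11 under quantile normalization, and -0.0245 to 0.078 with 1 array left out. Drp2 (1441224_at) was 0.024 under quantile normalization, 0.16 with array weights, 0.074 without both arrays that stood apart and -0.20 to 0.13 with 1 array left out; its probe set 1440452_at was 0.0059 without both and -0.080 to 0.025 with 1 left out. Cldn19 was -0.059 when centred, -0.043 under quantile normalization and -0.14 to 0.26 with 1 array left out; Gjb1 was -0.10 to 0.91 and Pmp2 was -0.40 to 0.23 with 1 array left out. Centring on the median turned the sign of 6 of 18 list medians (those of the transcription regulators, other peripheral myelin genes, repair Schwann cell markers, immediate early genes, cholesterol genes and perineurial markers), and quantile normalization turned 1, that of the perineurial markers. The oligodendrocyte, shared myelin and basal lamina medians kept their sign under both. The largest standard errors were those of both Gjb1 probe sets, Pmp2 and the dim Drp2 probe set.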

Other observations

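None of 9 tested macrophage markers was called; 7 of them had a positive log2 fold change, and their median was 0.18. C1qb, a complement gene of macrophages, averaged 5139 ± 648.4 in D257A and 3807 ± 914.0 in WT, and Cx3cr1, a chemokine receptor of resident macrophages, averaged 1261 ± 415.0 in D257A and 855.5 ± 255.2 in WT (SD, n = 5 each; limma adjusted p = 0.208 and 0.292).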
